A study of Homo sapiens and Mus musculus with 19 samples.

Results

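TFAP2A, TBX4, VAX2, NFIX, SIM1 and SOX1 encode DNA-binding proteins that direct the formation of embryonic tissues. They are 6 of the 19126 protein-coding autosomal genes considered, and their loci hold 841 of the 2317745 human CCGG sites listed. The 6 genes were chosen by earlier results of these libraries, which put the share of 5-methylcytosine (5mC) at their CCGG sites in HepG2 above that in H1ES. Differences between the 1000-cell libraries of the lines are therefore given as a description. Where a fit over all loci is used to place the 6 genes among other loci, its calls for them follow from that choice and support nothing. A locus is the gene's GRCh38 span with 5 kb added at each end. On GRCh38.p14, TFAP2A lies at chr6:10396677-10419659 (minus strand), SIM1 at chr6:100385009-100464921 (minus strand) and TBX4 at chr17:61452422-61485110 (plus strand). VAX2 lies at chr2:70900576-70933446, NFIX at chr19:12995475-13098796 (plus strand) and SOX1 at chr13:112067149-112071706 (plus strand).

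The human samples came from HepG2, a line derived from a hepatocellular carcinoma, and from H1ES, an embryonic stem cell line. Each line had 2 libraries of 1000 cells and 5 libraries of single cells, with no treatment named. The assay counted tags from unmethylated, 5mC and 5-hydroxymethylcytosine (5hmC) copies of each CCGG site, so a 5mC share is the percentage of a locus's tags that were 5mC. The labels do not say whether libraries of a line came from separate cultures, so any spread between them may be technical.

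In vertebrate genomes most CpG pairs are methylated, whereas the CpG-rich stretches around the starts of developmental regulators are usually kept unmethylated. In embryonic stem cells such genes are commonly held silent by Polycomb proteins. In many cancer cell lines the same stretches are known to carry DNA methylation while the rest of the genome has lost part of its own. TFAP2A, an AP-2 factor, acts in neural crest and surface ectoderm. TBX4 is a T-box factor of the hindlimb and lung, and VAX2 is a homeobox factor of the ventral retina. NFIX belongs to the nuclear factor I family and acts in muscle and brain development. SIM1, a basic helix-loop-helix PAS protein, is needed for neurons of the hypothalamus, and SOX1 marks neural progenitors.

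Promoter windows of 5 of the 6 genes, all but VAX2, were matched in the RefSeq table of GRCh38.p14. A window runs from 250 bases before to 50 bases after an annotated transcript start. The windows below are shown because they contain CCGG sites that kept a low 5mC share in both lines or that differed between the lines. Capitals mark CCGG, the letters read by the assay, which are the same on both strands. Of the 35116 promoter windows in the table, 63.1% hold a CCGG. The TFAP2A windows lie at its outermost start and at a start 7268 bases further in, inside the overlapping antisense RNA gene TFAP2A-AS1. The NFIX windows lie at starts 28497 and 29304 bases into the gene, and the SIM1 windows at its outermost start and at one 465 bases further in.
TFAP2A chr6:10419610-10419909 (minus strand): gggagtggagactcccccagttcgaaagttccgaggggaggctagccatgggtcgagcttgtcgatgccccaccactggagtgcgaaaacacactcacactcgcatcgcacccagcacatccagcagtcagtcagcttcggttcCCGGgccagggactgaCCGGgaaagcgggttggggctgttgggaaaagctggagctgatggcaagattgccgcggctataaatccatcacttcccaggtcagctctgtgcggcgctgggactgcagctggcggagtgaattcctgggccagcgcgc
TFAP2A chr6:10412342-10412641 (minus strand): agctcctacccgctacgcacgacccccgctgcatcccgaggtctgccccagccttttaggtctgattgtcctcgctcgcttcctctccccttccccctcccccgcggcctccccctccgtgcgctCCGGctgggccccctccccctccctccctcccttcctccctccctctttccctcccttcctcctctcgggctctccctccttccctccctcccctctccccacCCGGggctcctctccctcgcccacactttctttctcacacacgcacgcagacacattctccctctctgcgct
NFIX chr19:13023722-13024021 (plus strand): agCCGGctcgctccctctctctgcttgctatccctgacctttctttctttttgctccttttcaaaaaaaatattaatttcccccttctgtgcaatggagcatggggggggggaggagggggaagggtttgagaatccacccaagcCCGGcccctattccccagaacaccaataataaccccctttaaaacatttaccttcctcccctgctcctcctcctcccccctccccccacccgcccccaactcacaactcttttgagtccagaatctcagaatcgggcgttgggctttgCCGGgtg
NFIX chr19:13024529-13024828 (plus strand): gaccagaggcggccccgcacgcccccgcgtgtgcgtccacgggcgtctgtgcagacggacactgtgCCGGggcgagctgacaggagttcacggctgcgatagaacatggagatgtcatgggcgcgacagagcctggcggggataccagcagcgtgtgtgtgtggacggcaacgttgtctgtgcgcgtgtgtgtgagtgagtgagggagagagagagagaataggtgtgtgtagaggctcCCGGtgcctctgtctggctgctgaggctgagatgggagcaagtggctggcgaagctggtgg
SIM1 chr6:100464872-100465171 (minus strand): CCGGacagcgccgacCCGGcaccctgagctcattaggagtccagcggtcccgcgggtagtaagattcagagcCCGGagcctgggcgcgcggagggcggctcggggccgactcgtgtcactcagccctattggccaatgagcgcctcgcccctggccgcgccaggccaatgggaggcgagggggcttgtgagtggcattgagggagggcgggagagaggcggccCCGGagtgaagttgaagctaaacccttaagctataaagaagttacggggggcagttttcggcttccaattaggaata
SIM1 chr6:100464407-100464706 (minus strand): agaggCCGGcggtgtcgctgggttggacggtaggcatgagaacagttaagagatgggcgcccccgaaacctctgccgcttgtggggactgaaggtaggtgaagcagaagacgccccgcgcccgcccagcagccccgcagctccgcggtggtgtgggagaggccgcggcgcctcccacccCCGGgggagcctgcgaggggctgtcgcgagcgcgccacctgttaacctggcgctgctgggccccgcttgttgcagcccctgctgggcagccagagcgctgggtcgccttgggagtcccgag

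Bases are counted from 1 at the left end of each printed window. In the outer TFAP2A window, the CCGG at base 145 had 0 of 11 tags as 5mC in HepG2 and 0 of 10 in H1ES, pooling the 1000-cell libraries of a line. The CCGG at base 161 had 1 of 9 tags as 5mC in HepG2 and 0 of 12 in H1ES. The inner TFAP2A window held 0 of 11 5mC tags in HepG2 and 1 of 8 in H1ES at base 229. The TFAP2A starts that could be read were thus almost free of 5mC in both lines.

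The NFIX windows differed from each other at the site with the most tags in each. At base 3 of the first window, HepG2 had 0 of 10 tags as 5mC and H1ES had 0 of 6. Base 294 of that window had few tags, with 3 of 5 as 5mC in HepG2 and 0 of 1 in H1ES. At base 240 of the second window, HepG2 had 11 of 12 tags as 5mC and H1ES had 4 of 19. In the outer SIM1 window the CCGG at base 224 had 4 of 4 tags as 5mC in HepG2 and 0 of 8 in H1ES. In the inner SIM1 window, at base 180, HepG2 had 7 of 15 5mC tags and H1ES had 2 of 20. The 11 promoter windows of the matched genes hold 27 distinct CCGG sites, of which 10 had a tag in the 1000-cell libraries. None of the promoter CCGG sites of TBX4 and SOX1 had one, so their starts were read only from neighbouring sites. Over all autosomal promoters, 22.2% of CCGG sites had a tag.

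The 1000-cell libraries held 5977422 and 5146348 tags in HepG2 and 6644517 and 4911898 in H1ES. Over the autosomes, 5mC made up 60.6% and 61.7% of tags in HepG2 and 93.6% and 94.2% in H1ES. Single cells held 526207 to 2455908 tags in HepG2 and 757767 to 1543724 in H1ES. HepG2 cells 3 and 5 stood apart, with a tag at 46.0% and 45.4% of sites, against 17.9% to 20.1% in the other HepG2 cells. At the start windows of line markers, the unmethylated share in the pooled 1000-cell libraries was 93.1% in HepG2 and 1.61% in H1ES for HNF4A, a hepatocyte regulator. It was 5% in HepG2 and 83.3% in H1ES for POU5F1, a pluripotency factor. TTR, another hepatocyte gene, had a share of 0% in both lines, and the start windows of ALB and AFP held no tag.

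**Figure D1:**
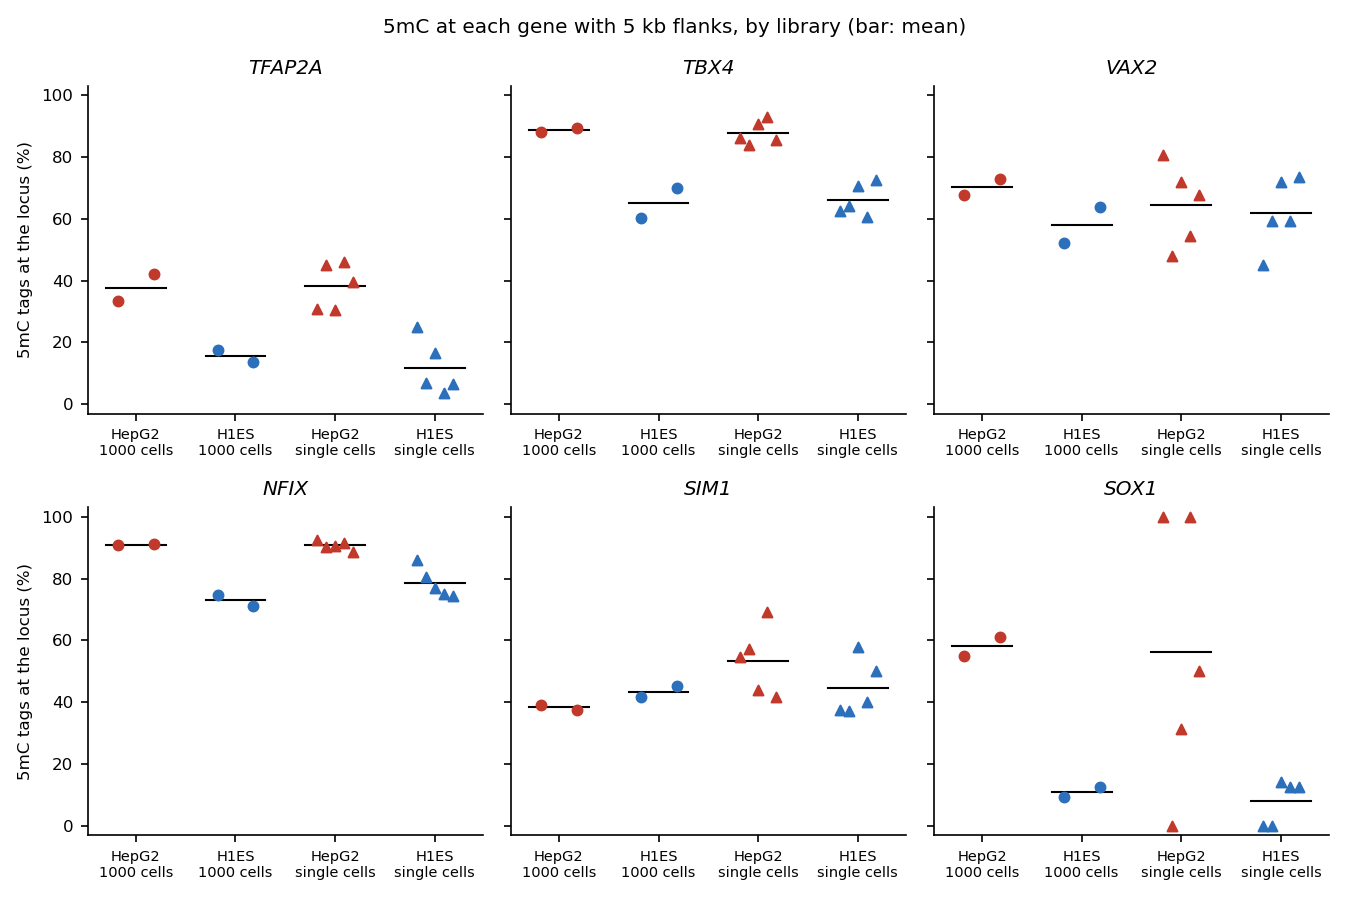
Percentage of tags that were 5mC at each of the 6 loci (gene with 5 kb flanks), one point per library, with HepG2 in red and H1ES in blue. Bars are means of 2 libraries of 1000 cells (circles) or 5 single cells (triangles). HepG2 lies above H1ES at 5 genes in the 1000-cell libraries, and SIM1 lies the other way round, a direction that turns on the scale relative to genome-wide odds.

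SOX1 showed the widest gap. Its 5mC share was 55.0% and 61.1% in the HepG2 1000-cell libraries, against 9.26% and 12.5% in the H1ES ones. Every HepG2 library stood far above both H1ES libraries, although they held only 32 to 54 tags at this locus. The means were 58.1% ± 4.32 in HepG2 and 10.9% ± 2.29 in H1ES (SD, n = 2 each).

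TBX4 and TFAP2A followed. The TBX4 locus had 88.0% and 89.4% 5mC in HepG2, against 60.2% and 70.0% in H1ES. TFAP2A had 33.3% and 42.1% in HepG2, against 17.5% and 13.7% in H1ES. The lines did not overlap at either gene, but the levels differed: TBX4 was mostly methylated in both lines, and TFAP2A was mostly unmethylated in both.

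NFIX and VAX2 had smaller differences. NFIX had 90.8% and 91.1% 5mC in HepG2, against 74.7% and 71.3% in H1ES. VAX2 had 67.8% and 72.8% in HepG2, against 52.3% and 63.8% in H1ES. The HepG2 libraries were above the H1ES ones at both genes, and at VAX2 the H1ES libraries were nearly as far apart as the lines: the means were 70.3% ± 3.50 in HepG2 and 58.0% ± 8.10 in H1ES (SD, n = 2 each).

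SIM1 went against the choice of the set in absolute share, though not relative to the genome-wide odds given below. Its locus had 39.2% and 37.5% 5mC in HepG2, against 41.5% and 45.1% in H1ES, so both HepG2 libraries were slightly below both H1ES libraries. The difference of the means was −4.96 percentage points. A region at its start was more methylated in HepG2.

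Across the 17433 loci with at least 20 tags in each 1000-cell library, the median difference was −11.3 percentage points, HepG2 minus H1ES. SOX1, at 47.2 points, ranked 24 from the top. TBX4 (23.6), TFAP2A (22.1), NFIX (17.9) and VAX2 (12.3) ranked 121, 132, 190 and 283, and SIM1 ranked 5782. The VAX2 difference was 6.53 points without H1ES library 1 and 21.4 points over the gene span alone. With edgeR's quasi-likelihood test on 5mC tags against all other tags (Benjamini-Hochberg, threshold 0.05), 2.45% of tested loci were called higher in HepG2 and 64% lower. These were 427 and 11158 loci, and DESeq2 called 211 higher and 9150 lower. The libraries of the lines did not overlap with HepG2 above at 5.8% of loci and with HepG2 below at 75.3%. Of the 6 genes, 5 were called higher and SIM1 was not called. That count follows from how the genes were chosen. VAX2 was not called with DESeq2 or when H1ES library 1 was left out, and SOX1 had too few tags for a test on the gene span alone.

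**Figure D2:**
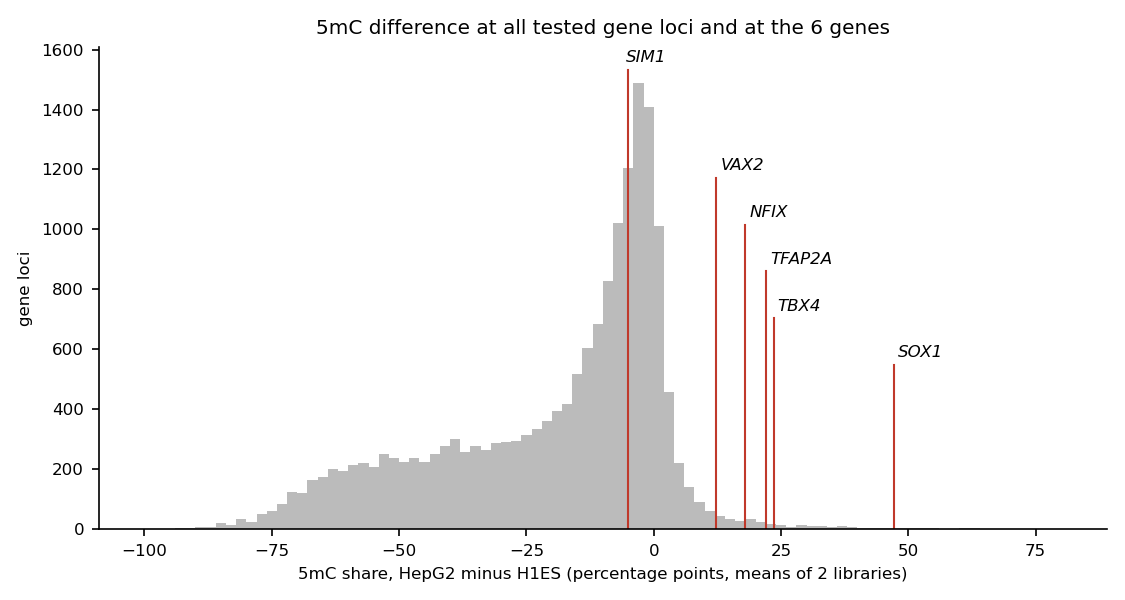
Number of gene loci (vertical axis) by the difference in 5mC share between HepG2 and H1ES in percentage points (horizontal axis, bins of 2 points, means of the 1000-cell libraries), for 17433 loci. Red lines mark the 6 genes: 5 of them lie to the right of nearly all loci and SIM1 lies at −4.96, within the bulk and below 0 in absolute share only.

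On the scale of odds, the fitted log2 odds ratio of 5mC, HepG2 over H1ES, was 3.52 for SOX1, 2.11 for TBX4, 1.86 for NFIX, 1.65 for TFAP2A, 0.82 for VAX2 and −0.28 for SIM1, and the median of all loci was −1.46. Scaling each library to its own genome-wide odds moved log2 odds ratios by 3.27, the median of all loci to 1.80, and the split of calls to 10967 higher and 3076 lower, against 427 higher and 11158 lower without it. Relative to the genome-wide odds, SIM1 too was higher in HepG2, at a log2 odds ratio of 3.004, and the other genes of the set were at 4.097 to 6.71.

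The position of the difference within the locus varied from gene to gene. At SOX1 it was widest at the start and went on into the body. Within 1 kb of the start, 23 of 25 tags were 5mC in HepG2 and 0 of 25 in H1ES. The H1ES count allows a share of up to 12% (3 counts of the total, counting error only). By library, the shares in that window were 86.7% and 100% in HepG2 and 0% and 0% in H1ES. A single CCGG at chr13:112067258, 109 bases past the start, gave 15 of the HepG2 tags, all 5mC, and 11 of the H1ES tags, none 5mC. In the SOX1 body past that window, 12 of 21 tags were 5mC in HepG2 and 4 of 34 in H1ES. By library the body was at 53.8% and 62.5% in HepG2 and at 16.7% and 6.25% in H1ES. Downstream of SOX1 the lines were closer, with 9 of 30 tags as 5mC in HepG2 and 5 of 24 in H1ES.

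TBX4 differed between the lines from its upstream region through its start, which the promoter table puts at base 61456488, inside the annotated span. Upstream of the start window, 82.4% of 102 tags were 5mC in HepG2 and 11.6% of 69 in H1ES. In the start window, all 52 HepG2 tags were 5mC, against 17 of 54 in H1ES. The libraries were at 100% and 100% in HepG2 and at 34.3% and 26.3% in H1ES, so the lines did not overlap. In the downstream flank the shares were 88.5% in HepG2 and 88.6% in H1ES. An unnamed long non-coding RNA gene in the annotation overlaps the start of TBX4, and the tags of the shared sites cannot be told apart.

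SIM1 was mixed. Its start window had 72.7% and 71.4% 5mC in the HepG2 libraries, against 12.1% and 0% in the H1ES libraries, with 43 tags in HepG2 and 57 in H1ES. The site at −658 bases from the start, chr6:100465579, had 14 of 15 tags as 5mC in HepG2 and 1 of 12 in H1ES. Its gene body went the other way in absolute share, with 31.3% 5mC in HepG2 and 49.6% in H1ES. The site 42424 bases into the gene had 0 of 8 tags as 5mC in HepG2 and 14 of 14 in H1ES. SIM1 therefore combined a methylated start with a less methylated body in HepG2, and its locus total averaged over them.

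TFAP2A had the reverse layout. Its start window was nearly unmethylated in both lines, with 6 of 46 tags as 5mC in HepG2 and 5 of 45 in H1ES. In its body, 43.7% of tags were 5mC in HepG2 and 16.1% in H1ES. By library the body was at 38.6% and 49.2% in HepG2 and at 17.1% and 14.4% in H1ES, with no overlap. All 7 of its sites that were at least 50 percentage points higher in HepG2 lay in the body, 2710 to 15702 bases from the start. At the farthest of them, chr6:10403957, HepG2 had 15 of 15 5mC tags and H1ES had 1 of 8.

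VAX2 and NFIX had most of their tags in the body. For VAX2, which has no strand in the tables used, distances are from the gene end with more CCGG sites. Its body had 82.9% 5mC in HepG2 and 60.5% in H1ES, and upstream of its start window 13 of 30 tags were 5mC in HepG2 and 5 of 32 in H1ES. By contrast, the flank past the far end, which overlaps the proton pump gene ATP6V1B1, had 16.7% in HepG2 and 90.9% in H1ES. The NFIX body had 92.4% in HepG2 and 73.2% in H1ES. Its outermost start window held few tags, with 6 of 9 as 5mC in HepG2 and 11 of 15 in H1ES. SIM1-AS1 overlaps most of the SIM1 body, NFIX-AS1 a stretch of NFIX and SOX1-OT all of SOX1. The flank past the end of NFIX, which overlaps the blood regulator LYL1, had 72.2% in HepG2 and 66.3% in H1ES.

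**Figure D3:**
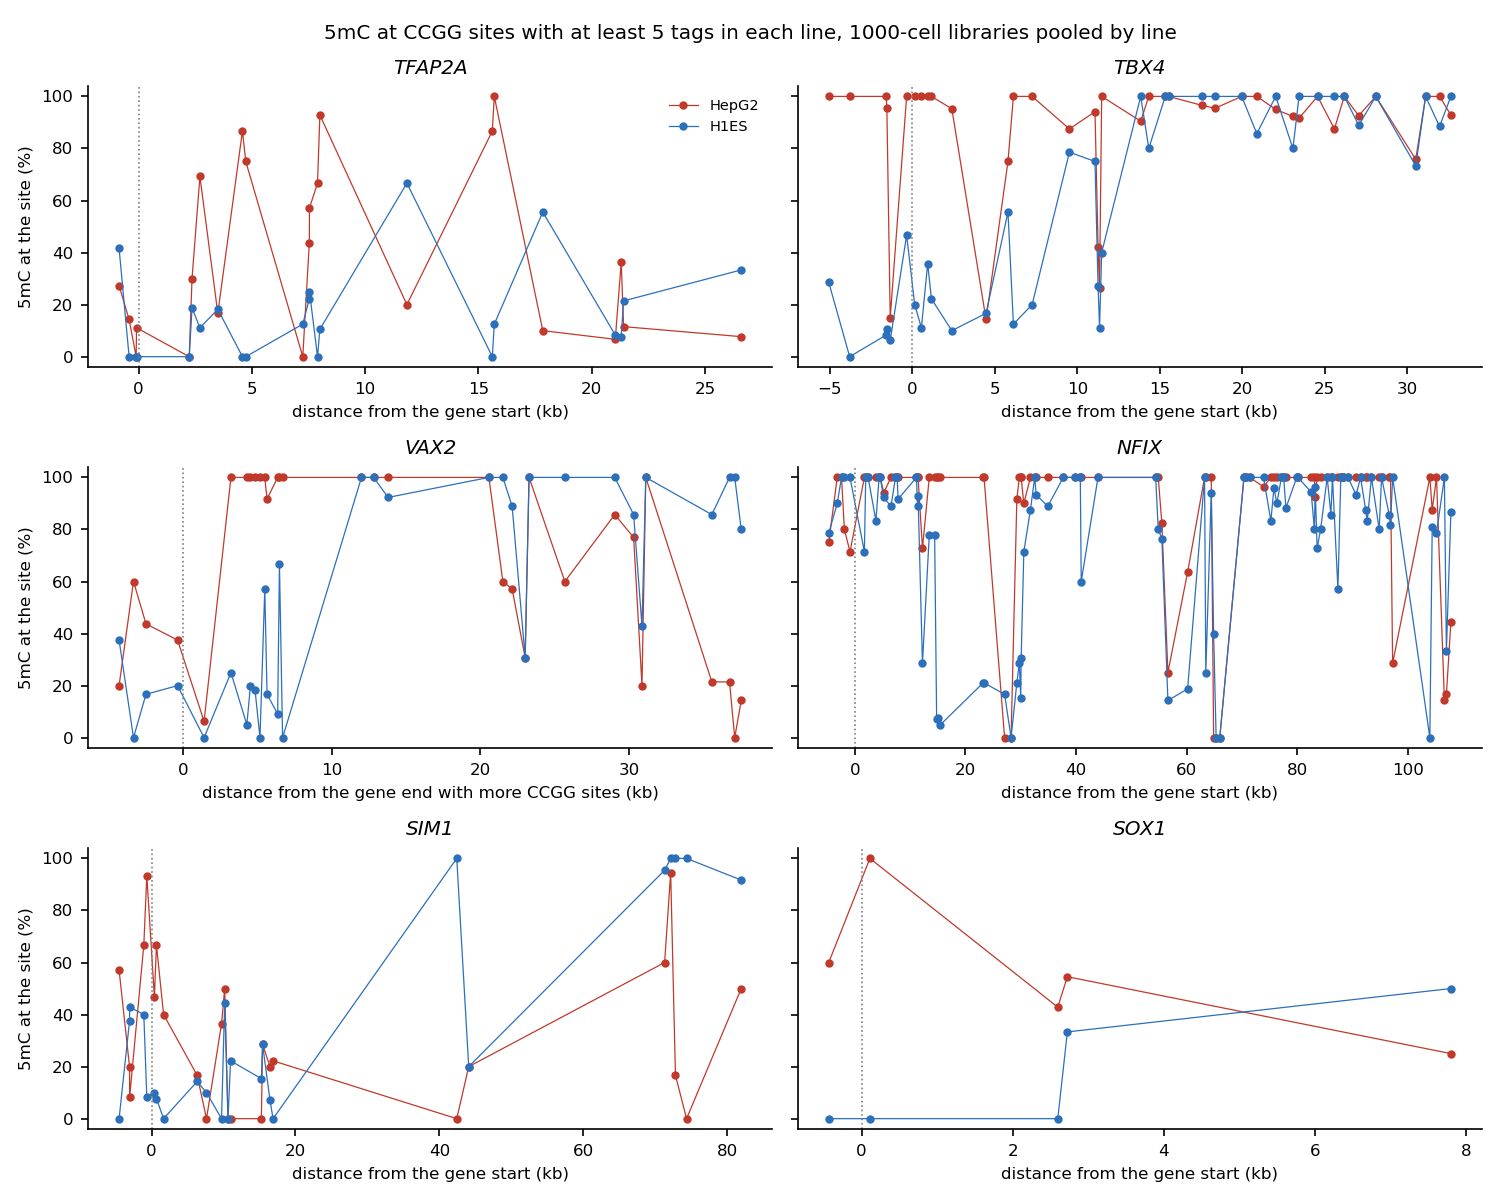
5mC percentage (vertical axis) at each CCGG site with at least 5 tags in each line, against distance from the gene start in kb (dotted line; for VAX2, from the gene end with more CCGG sites), with the 1000-cell libraries pooled by line, HepG2 in red and H1ES in blue. Stretches with HepG2 near 100% and H1ES near the floor are seen at TBX4, VAX2 and NFIX. SIM1 has HepG2 above H1ES at its start and below it in the body.

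Of the 841 CCGG sites of the 6 loci, 427 had a tag in some human library and 220 had at least 5 tags in each line's pooled 1000-cell libraries. Among those 220, 45 (20.5%) were at least 50 percentage points higher in HepG2 and 9 (4.09%) at least 50 points lower. Over all autosomal sites measured in the same way, 0.776% were that much higher and 36.8% that much lower. By gene, the higher sites numbered 13 of 40 at TBX4, 11 of 95 at NFIX, 9 of 32 at VAX2, 7 of 23 at TFAP2A, 3 of 25 at SIM1 and 2 of 5 at SOX1. The lower sites were 4 at VAX2, all in the flank that overlaps ATP6V1B1, 3 in the SIM1 body and 2 at NFIX. The choice of the genes used these same libraries, so nothing is read from the excess of higher sites.

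In HepG2, 111 of the 220 sites had 5mC only, and NFIX held 73 of them. Over all measured autosomal sites, 263667 of 800397 had 5mC only in HepG2. Between 20% and 80% were 25.3% of those autosomal sites, against 20% of the sites of the 6 genes. HepG2 was between 20% and 80% at 44 sites, a class that took 11 of 25 sites at SIM1 and 8 of 23 at TFAP2A but 4 of 40 at TBX4. TBX4 and NFIX were thus close to fully methylated in HepG2 at most sites, and SIM1 and TFAP2A were a mixture of low, intermediate and high sites.

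The higher sites formed runs at some genes. A run was taken as at least 3 consecutive measured sites, each at least 50 points higher in HepG2 and no more than 5 kb apart, a definition chosen after the values were seen. Runs were found at 3 of the 6 genes, against 1.57% of the 18031 gene loci with at least 3 measured sites, and nothing is read from that excess either. There were 278 runs on the autosomes. TBX4 had a run of 4 sites at chr17:61451433-61454956, upstream of its start window, and another of 6 sites at chr17:61456152-61458893 across its start. NFIX had a run of 3 sites at chr19:13010256-13010839 and another of 4 at chr19:13024768-13025552. The second of these begins at the CCGG at base 240 of the second printed NFIX window. VAX2 had 1 of 5 sites at chr2:70903808-70905763, within its body.

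The single cells were not used to define the runs, but they come from the same lines. They show only whether the gap that defined the runs recurs in other libraries. Over the 22 sites of the 5 runs, 146 of 147 single-cell tags were 5mC in HepG2, or 99.3% (95% exact interval 96.3% to 99.98%), against 12 of 76 in H1ES, or 15.8% (8.43% to 26.0%). HepG2 cells 1 to 5 had 100%, 100%, 100%, 100% and 97.96%. H1ES cells 1 to 5 had 16.7%, 26.7%, 20%, 9.38% and 12.5%. Every HepG2 cell was far above every H1ES cell, including the shallow HepG2 cells 1, 2 and 4, which had 15 to 17 tags in the runs.

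At the other 198 measured sites the 1000-cell libraries had 73.3% and 76.8% 5mC in HepG2, against 65.9% and 64.6% in H1ES, with no overlap. The lines were much closer there in single cells than in the runs, a contrast that follows from how the runs were defined. HepG2 cells had 65.1% to 80.2% 5mC, with 73.9% pooled, and H1ES cells had 67.5% to 71.4%, with 69.2% pooled. HepG2 cell 2, at 65.1%, was below all 5 H1ES cells, so the single cells of the lines overlapped outside the runs.

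**Figure D4:**
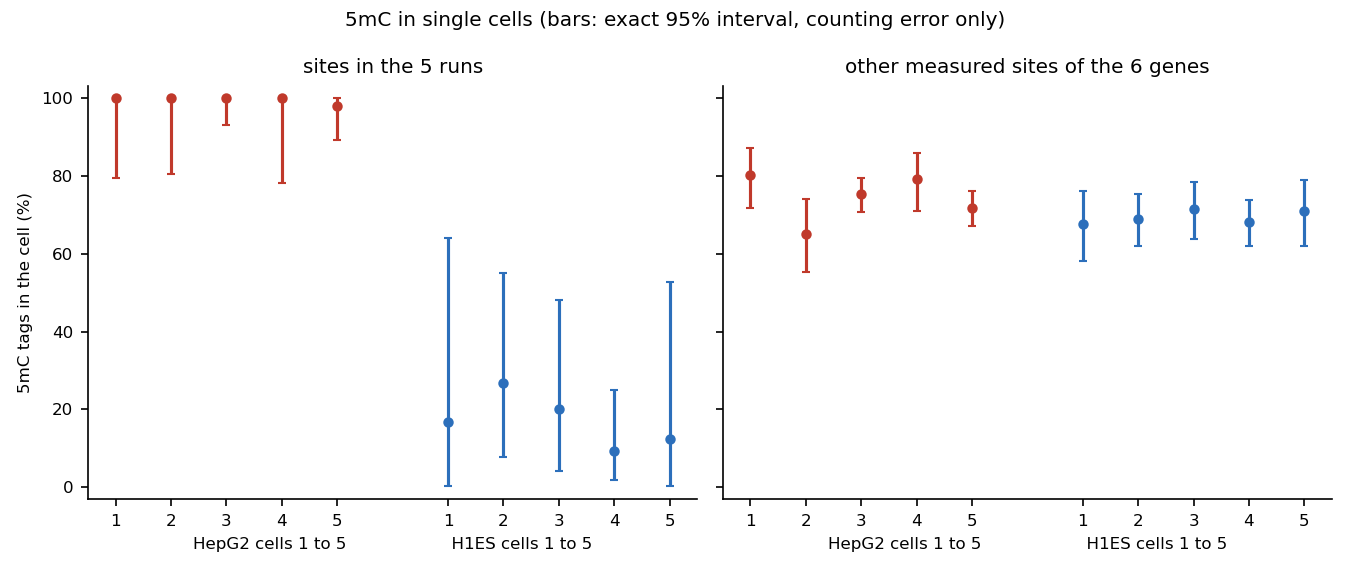
5mC percentage in each single cell at the 22 sites of the 5 runs (left) and at the other 198 measured sites of the 6 genes (right), HepG2 in red and H1ES in blue. Bars are exact 95% intervals of the tag counts, which cover counting error only. In the runs all HepG2 cells are at 97.96% or more and all H1ES cells at 26.7% or less, whereas outside the runs the lines overlap. The runs were defined by a wide gap between the same lines, so this contrast follows from their definition.

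Over whole loci, the single cells separated the lines at TFAP2A, TBX4 and NFIX. The share of all gene loci that single cells separate in this way was not counted, so nothing is read from the number of such genes. TFAP2A had 30.6% to 46.2% 5mC in HepG2 cells, with a median of 39.5%, and 3.70% to 25% in H1ES cells, with a median of 6.90%. TBX4 had 83.8% to 92.9% in HepG2 cells and 60.7% to 72.7% in H1ES cells. NFIX had 88.6% to 92.6% in HepG2 cells and 74.5% to 85.9% in H1ES cells. At these genes the lowest HepG2 cell was above the highest H1ES cell. No test was made, because each cell is 1 library and each line is 1 sample.

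The lines overlapped in single cells at the other genes of the set. VAX2 had 48% to 80.8% in HepG2 cells and 45% to 73.7% in H1ES cells, with pooled shares of 67.4% (95% exact interval 60.8% to 73.5%) in HepG2 and 61.8% (53.6% to 69.6%) in H1ES. Leaving out the deep HepG2 cells 3 and 5 turned the pooled VAX2 difference from 5.57 percentage points into −0.20. SIM1 had pooled shares of 47.0% (38.3% to 55.8%) in HepG2 and 42.6% (34.0% to 51.6%) in H1ES, a difference of 4.38 points that became 18.7 points without cells 3 and 5. Neither gene was separated by line at the depth of these cells.

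SOX1 had only 40 single-cell tags in HepG2 and 30 in H1ES. HepG2 cells 3 and 5 held 16 and 18 of them, with 31.3% and 50% 5mC, and the other HepG2 cells held 1 to 3 tags each. Pooled, SOX1 had 45% (29.3% to 61.5%) in HepG2 and 10% (2.11% to 26.5%) in H1ES, so the pooled intervals did not meet although single cells overlapped. In its start window, all 9 HepG2 tags were 5mC, against 1 of 7 in H1ES.

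The start windows in single cells had the same layout as in the 1000-cell libraries. At TBX4, all 27 HepG2 tags were 5mC and 3 of 15 H1ES tags. SIM1 had 20 of 24 in HepG2 and 4 of 22 in H1ES. TFAP2A had 5 of 28 in HepG2 and 0 of 22 in H1ES, which allows up to 13.6%.

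At the level of all start windows (within 1 kb of the start, at least 10 tags in each 1000-cell library), edgeR called 5.53% of 4795 windows less unmethylated in HepG2 and 31.5% more unmethylated. TFAP2A, SIM1 and TBX4 had enough tags. The unmethylated share at the start of SIM1 was 27.9% in HepG2 and 91.2% in H1ES, and at TBX4 it was 0% in HepG2 and 68.5% in H1ES. TFAP2A had 87.0% in HepG2 and 88.9% in H1ES. These shares come from the libraries that chose the genes, so no call is given for them.

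Sites were also classed by their state in the pooled H1ES single cells, which are other libraries of the same line. A site with at least 2 tags there was called unmethylated at 20% 5mC or less and methylated at 80% or more. At the 80 sites of the 6 genes in the unmethylated class, the HepG2 1000-cell libraries had 57.4% and 63.4% 5mC and the H1ES ones 12.3% and 12.2%. Over all gene loci, 25917 sites in that class had 23.4% and 24.2% in HepG2 and 12.6% and 13.6% in H1ES. At the 128 sites in the methylated class, HepG2 had 89.2% and 89.6% and H1ES had 92.0% and 92.6%, whereas over all gene loci HepG2 had 73.3% and 74.0% and H1ES 97.7% and 97.9%. The 128 methylated-class sites are dominated by NFIX, which holds 78 of them, and their pooled share does not hold for each gene. The H1ES values follow from the class, and the HepG2 values come from libraries that chose the genes. Nothing is therefore read from the distance between the 6 genes and all gene loci.

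The genes differed within those classes. At unmethylated-class sites, HepG2 averaged 88.2% ± 2.12 at TBX4, 84.8% ± 11.5 at NFIX, 70.1% ± 12.8 at VAX2, 38.7% ± 5.12 at TFAP2A and 29.0% ± 1.08 at SIM1 (SD, n = 2 each). H1ES averaged 9.38% to 16.2% at these genes. At methylated-class sites HepG2 averaged 96.3% at NFIX and 92.9% at TBX4, against 93.1% and 92.4% in H1ES. SIM1 and TFAP2A were below the level of all gene loci in HepG2 at such sites, with 4 sites at TFAP2A. SOX1 had 1 such site, with 3 of 7 tags as 5mC in HepG2 and 0 of 9 in the H1ES 1000-cell libraries. Its class therefore did not hold in those H1ES libraries, and nothing is read from it. VAX2 had 81.7% ± 2.98 in HepG2 and 95.9% ± 0.60 in H1ES, and SIM1 had 41.4% ± 2.02 in HepG2 and 92.8% ± 0.09 in H1ES (SD, n = 2 each). SIM1 was thus far lower in HepG2 at its methylated-class sites, while NFIX and TBX4 were near the H1ES level there.

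**Figure D5:**
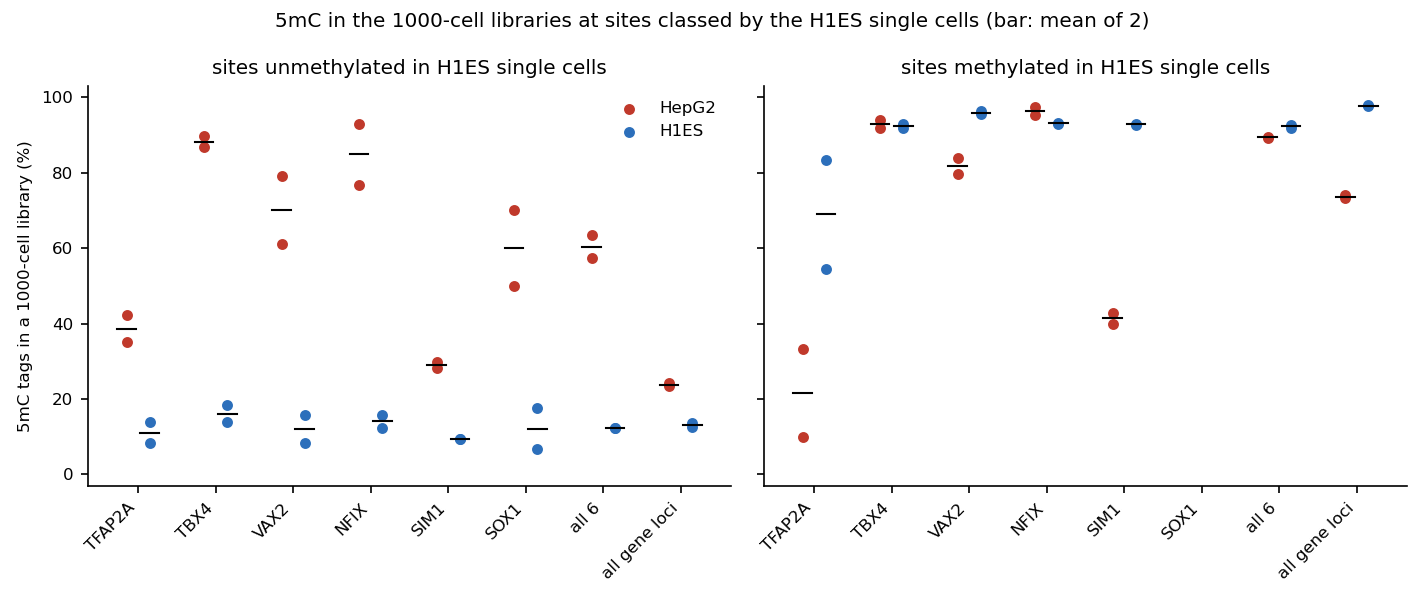
5mC percentage in each 1000-cell library (points, HepG2 in red left of H1ES in blue; bars are means of 2) at sites that were unmethylated (left panel) or methylated (right panel) in the pooled H1ES single cells, for each gene with at least 4 such sites, all 6 genes and all gene loci. At unmethylated sites TBX4 has the highest mean in HepG2 and SIM1 the lowest of the 6 genes. At methylated sites SIM1 is far lower in HepG2 than in H1ES. TFAP2A is lower too, but from 4 sites with 19 tags in HepG2 and 17 in H1ES, where H1ES is at 54.5% and 83.3%.

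Intermediate sites, with 20% to 80% 5mC in the pooled HepG2 1000-cell libraries, were looked at within single HepG2 cells. Among pairs of such a site and a cell with at least 2 tags, 38 of 66 (57.6%, exact 95% interval 44.8% to 69.7%) at the 6 genes held both 5mC and other tags in the same cell. The remaining pairs were 12 with 5mC only and 16 with none. Over all gene loci 53.2% of such pairs were mixed, which lies inside the interval for the 6 genes. That interval treats pairs as independent, although a site can recur in more than 1 cell. Without the deep cells 3 and 5, 6 of 13 pairs were mixed at the 6 genes, against 41.2% of 32403 over all gene loci.

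Density of CCGG sites is a property of the sequence alone. At sites with 10 or more CCGG within 500 bases, the 6 genes had 64.8% and 72.1% 5mC in the HepG2 libraries, against 26.8% and 24.0% in the H1ES libraries. At isolated sites, the only CCGG within 500 bases, they had 79.9% and 81.9% in HepG2, against 84.8% and 90.8% in H1ES. The pool of 6 hides a split between the genes. At crowded sites TBX4 averaged 98.6% in HepG2 and 14% in H1ES, and SOX1 averaged 92.3% in HepG2 and 2.63% in H1ES. SIM1 had 79.4% in HepG2 and 7.14% in H1ES there, and NFIX had 71.6% in HepG2 and 54.9% in H1ES. Crowded TFAP2A sites averaged 10.8% in HepG2 and 16.5% in H1ES, from 38 and 28 tags. VAX2 had 25% in HepG2 and 16.7% in H1ES from 12 and 8 tags. The libraries of the lines overlapped at TFAP2A and at VAX2, so no direction is read from these crowded sites. At isolated sites HepG2 was above H1ES at TBX4, with 94.9% in HepG2 and 88.6% in H1ES. NFIX averaged 92.8% in HepG2 and 88.0% in H1ES there. Its libraries overlapped, at 95.3% and 90.2% in HepG2 and 85.7% and 90.3% in H1ES. HepG2 was below H1ES at VAX2 (81.5% in HepG2, 96.7% in H1ES), SIM1 (46.6% in HepG2, 87.9% in H1ES) and TFAP2A (17.8% in HepG2, 51.9% in H1ES). SOX1 has no isolated site. Over all gene loci, crowded sites had 36.3% and 36.4% in HepG2 and 35.7% and 35.8% in H1ES, and isolated sites 69.1% and 69.9% in HepG2 and 96.6% and 96.9% in H1ES. Coverage was lower at crowded sites: 14.3% of crowded sites of the 6 genes had a tag, against 88.2% of isolated ones.

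5hmC was scarce at the 6 genes in HepG2 and more frequent in H1ES. NFIX had 0.43% and 0.52% 5hmC in the HepG2 1000-cell libraries, against 3.38% and 3.07% in the H1ES ones. TBX4 had 0.79% and 1.15% in HepG2, against 4.50% and 3.86% in H1ES. VAX2 had 0 of 443 tags in HepG2, which allows up to 0.677%, against 5.64% and 3.62% in H1ES. The lines did not overlap at these genes, and the autosomal 5hmC shares were 0.221% and 0.277% in HepG2 and 1.69% and 1.52% in H1ES. TFAP2A had 1 5hmC tag of 341 in HepG2 (95% exact interval 0.0074% to 1.62%) and 5 of 318 in H1ES (0.512% to 3.63%), and these intervals overlap. SIM1 had 0 of 265 in HepG2, which allows up to 1.13%, and 6 of 348 in H1ES. SOX1 had 0 of 76 in HepG2, which allows up to 3.95%, and 4 of 86 in H1ES.

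Genes with the nearest 5mC shares over the 4 1000-cell libraries were taken among 11179 loci with a mean of at least 100 tags. Near TFAP2A was HOXD13, a homeobox gene of limb patterning, with 41.5% and 40.2% in HepG2 and 13.1% and 16.4% in H1ES. For TBX4 the nearest was TBX15, another T-box gene, with 83.5% and 81.6% in HepG2 and 61.9% and 63.7% in H1ES, and then the receptor kinase gene LTK. For SOX1 they were TBX3, with 56.2% and 70.9% in HepG2 and 9.15% and 13.4% in H1ES, and FOXA1, and for SIM1 they were IRX4 and GATA3. NFIX was nearest to GATA4 and PRMT5, and BCL3 was near VAX2, at distances of 5.44 to 8.74 percentage points. Such likeness describes 4 libraries and says nothing of shared control.

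In absolute share, relatives of the 6 genes were called in both directions, whereas most were called higher relative to genome-wide odds. Relative to those odds, 10967 of all 17433 tested loci were called higher and 3076 lower, so higher is the usual call there. In absolute share, 2.45% of all tested loci were called higher and 64% lower. Of 5 AP-2 genes tested, 2 were called higher in HepG2 (TFAP2A and TFAP2B, with TFAP2B 10.3 points higher) and 1 lower (TFAP2D, −35.4 points), although all 5, TFAP2D included, were called higher relative to genome-wide odds. Of 16 T-box genes, 5 were higher and 6 lower. TBX2 (52.9 points) and TBX3 (52.2 points), which act in limb and heart, were highest over H1ES, and TBX21 (−57.3 points), a T-cell regulator, and TBXT (−34.7 points), the mesoderm factor Brachyury, furthest below it. Relative to genome-wide odds, 13 T-box genes were called higher and 0 lower, and neither TBX21 nor TBXT was called.

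In the NFI family, NFIX alone of 4 was called higher, and NFIB (−45.6 points) was called lower, a call that was absent relative to genome-wide odds, where 3 were higher and 0 lower. Among 5 homeobox genes of the VAX, EMX and NOTO kinds, VAX2 and EMX2 (19.7 points) were higher and NOTO (−21.6 points) was lower, with all 5 called higher on the relative scale. Of 16 basic helix-loop-helix PAS genes, 1 was called higher, the hypoxia factor HIF1A (13.4 points), and 7 lower, whereas 14 were higher and 1 lower on the relative scale. The lowest were NPAS3 (−66.5 points), also lower on the relative scale, and NPAS4 (−40.5 points), higher on it. Of 18 SOX genes, 7 were higher, led by SOX1 and the chondrocyte regulator SOX9 (41.6 points), and 6 lower, led by SOX8 (−54.3 points) and SOX6 (−52.9 points), both lower on the relative scale too, where 16 were higher and 2 lower.

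Genes that act in the same tissues as members of the set were also called in both directions in absolute share. Of 16 neural progenitor genes, 12 were called higher and 1 lower (16 and 0 on the relative scale), with a median difference of 22.03 points against −11.3 over all loci. SOX1 was among those called higher, and LHX2, at −16.1 points, was the gene called lower, turned to higher by the relative scale. Of 17 genes of the neural crest and plate border, 10 were higher, led by MSX1 (51.8 points) and DLX6 (51.5 points), and 5 lower, against 14 and 1 on the relative scale. MITF (−72.6 points), the melanocyte regulator, and the receptor gene KIT (−49.5 points) were lowest, and on the relative scale MITF was still called lower and KIT was not called.

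In the hindlimb list, 3 of 9 were higher and 4 lower, against 8 and 1 on the relative scale. PITX1, which acts upstream of TBX4 in the mouse hindlimb, was 61.9 points higher in HepG2, followed by HOXC10 at 40.7 points, and the growth factor gene FGF10 (−62.6 points) was lowest, on the relative scale too. TBX5, the forelimb counterpart of TBX4, was lower in absolute share (−18.9 points) and higher on the relative scale. Of 15 ventral eye genes, 5 were higher, led by BMP4 (50.2 points) and SIX3 (45.5 points), and 7 lower, led by the retinoic acid enzymes ALDH1A2 (−64.0 points) and ALDH1A3 (−47.2 points), the second of which was not called on the relative scale, where 12 of the list were higher and 2 lower. Of 7 hypothalamus genes, 2 were higher, OTP (28.9 points) and POU3F2 (19.3 points), and 4 lower, led by the hormone genes OXT (−43.0 points) and AVP (−41.6 points). Of these hormone genes only AVP was still called lower on the relative scale, where 3 of the list were higher and 1 lower.

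Leaving the 6 genes out, 31 of the 101 tested genes of all the lists were called higher and 39 lower. Their median difference was −0.91 points. Over all tested loci, 2.45% were called higher and 64% lower. Relative to genome-wide odds, 83 of the 101 were called higher and 8 lower, against 10967 and 3076 of all 17433 tested loci. The lists were written with earlier results of these data known, and the counts describe them only.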

How the data were processed

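The 14 human libraries of the 19 in the series were used; the mouse libraries were not analysed here. Bowtie2 2.3.4.1, cutadapt 1.5 and UMI-tools 0.5.4 are named in the submitters' processing notes, and how they were run is not given in the sources used here. Each deposited table gives per CCGG site 3 values in the unit fraction (shares of tag kinds) and, as counts, the number of tags. No column is named in these tables. Crowded sites showed which fraction is the unmethylated one, and the larger of the other 2 was taken as 5mC, on which every 5hmC value rests. Fraction times count was whole within 0.00141 at every site, so tags of each kind were recovered. Every CCGG in the RefSeq promoter windows (GRCh38.p14) of the 5 matched genes, all but VAX2, fell on a listed site.

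Loci (gene span with 5 kb flanks, at least 20 tags in each library) and start windows (1 kb each side, at least 10 tags) were fitted in edgeR 4.0.16 (R 4.3.3, quasi-likelihood; 1 term per library, 1 for the kind of tag and 1 for kind by line; Benjamini-Hochberg, threshold 0.05) and tested on simulated data. DESeq2 1.42.0 was an alternative, as were other tag minimums, windows, a genome-wide scaling, a replicate block and each library left out. Single cells were not tested; intervals are exact (Clopper-Pearson, 95%) and cover counting error only. A share of 0 is given with the share that 3 tags would make. Figures were drawn with matplotlib 3.10.9 and tables made with pandas 2.3.3.

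The 6 genes and all gene lists were chosen with earlier results of these data known. Beyond the 6 genes, the rule named the 2 nearest loci of each gene and, of each list, up to 2 genes called higher and 2 called lower with the widest change and no overlap of libraries. Some genes that the rule names are not reported here.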

Additional observations from a re-analysis of the deposited data

Results flagged for a closer look

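Of 16 groups of 5 single cells examined, 1 held a cell far from the others. At the 22 sites of the runs, HepG2 cell 5 had 97.96% 5mC, that is 48 of 49 tags, against 100% in each of the other HepG2 cells, so 1 tag made the difference. Chance flags about 1 in 20 groups of values without ties. That rate does not hold here, because with the other cells tied at 100% any lower value would be flagged.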

How the results depend on the processing

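The number of loci called for 5mC was 11585 of 17433 and stayed within 1.5 times that number under all 11 alternatives, at 8071 to 14043, with 10355 to 10908 when each library was left out. The loci called higher moved more, at 427 with edgeR and 211 with DESeq2. The total also hides the direction of the calls. With the genome-wide scaling 10967 loci were called higher and 3076 lower, against 427 and 11158 without it. Only 3503 of the 11585 loci were called in the same direction under that scaling. The start windows were far less stable. Of 4795 windows, 1777 were called, against 3073 with a minimum of 5 tags, 338 with 20 tags, 3602 with no minimum beyond 1 tag, 369 with 500 bp on each side and 4521 with 2 kb, where different numbers of windows were tested. Leaving out each library gave 0 to 922 calls, 0 by edgeR without either H1ES library (1507 and 1864 windows at an unadjusted p under 0.05) and 704 and 922 without HepG2 libraries 1 and 2, and then 1 library stood for its line with the spread of the other line assumed for it. The genome-wide scaling gave 278 windows higher and 2173 lower in unmethylated share, against 1512 and 265 without it. With a replicate block the calls were 11607 for loci and 1550 for windows. The shared replicate numbers pair nothing known, and the differences between libraries 1 and 2 of the lines correlated at 0.0105 over loci. Over the 6 genes in the 1000-cell libraries, 31 of 42 alternative values moved by less than the SD between libraries, 10 moved by more with the same sign, and 1 reversed: the SIM1 difference became 7.02 points as a mean over the 4 sites with at least 5 tags in each library. In single cells the median difference over the 6 genes was 17.6 points, 15.9 to 20.4 under all 12 alternatives, and the VAX2 difference became −0.20 without HepG2 cells 3 and 5. For both reversals the cause was not tested. The share of measured sites at least 50 points higher was 23.7% with a site minimum of 10 tags. Thin tag counts limit SOX1 and the start windows most: 5 SOX1 sites were measured in both lines.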
